A study of Oryza sativa Japonica Group with 4 samples.

Results

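The dehydration-responsive element-binding (DREB) proteins are plant transcription factors with a single AP2/ERF DNA-binding domain. They bind the dehydration-responsive element, whose core is CCGAC, in the promoters of stress genes. DREB1 genes (also called CBF genes) are best known for induction by cold, and DREB2 genes for induction by water deficit, salt and heat. Members were taken by gene identifier and kept where the deposited name or description was that of a DREB, ERF or AP2 factor. All 6 identifiers were kept, of 33744 genes in the table: DREB1A, DREB1B, DREB1C, DREB1H, DREB2A and DREB2B.

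Leaf RNA of Japonica rice (Oryza sativa) was sequenced from seedlings 14 days old, all of them after 6 h of drought. The libraries fall into 2 lines with 2 libraries each, OE13, labelled drought resistant, and OE13-2KR/oswox13-1, labelled drought sensitive. Both are built around OsWOX13, a WUSCHEL-related homeobox transcription factor, whose acetylation the title of the series names. The 2KR form and the oswox13-1 background occur together, so their parts in a difference cannot be told apart, and no watered or wild-type group was analysed here. The promoter behind OE13, the number of transformed lines and any pooling of plants are not given in the sources used here. Nothing says that replicates are separate plants, so a p-value here reflects only how the libraries of a line vary, which may be technical.

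Values are FPKM, fragments scaled to gene length and library total, which summed to between 931335 and 941593 per library over all genes. The read depth is unknown. Where values are joined by "against", those of replicates 1 and 2 of OE13-2KR/oswox13-1 stand first and those of replicates 1 and 2 of OE13 second. The locus taken from general knowledge to be OsWOX13, listed as OsWOX8, stood at 27.1 and 49.9 against 22.02 and 75.6 FPKM. Of the leaf markers, all 7 were present, with a summed level between 8510 and 24644 FPKM per library. Of the root markers, 2 were in the table: the silicon channel gene Lsi1 was between 18.7 and 27.1 FPKM and the nitrate transporter gene NRT2.1 between 0 and 0.212.

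Among the 6 genes the level, not the difference between lines, was the most regular feature: the order DREB1C, DREB2B, DREB2A, DREB1A, DREB1B, DREB1H held in each of the 4 libraries. DREB1C, which in rice is known to act on photosynthetic capacity, nitrogen use and flowering time, was by far the most abundant. DREB1A was higher in OE13-2KR/oswox13-1 at an unadjusted p only, and 0 of the 6 genes passed after adjustment over all genes (limma). DREB1B and DREB1H, which lie beside DREB1A on chromosome 9, were close to 0.

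**Figure D1:**
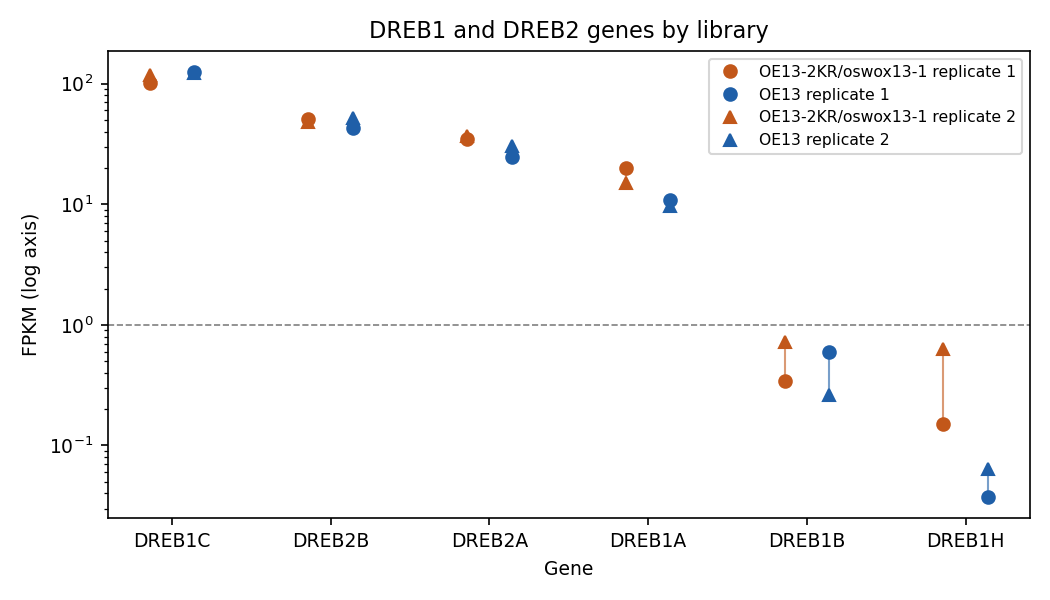
FPKM of the 6 DREB genes in each library on a log axis, with orange for OE13-2KR/oswox13-1, blue for OE13, circles for replicate 1 and triangles for replicate 2. A thin line joins the libraries of a line, and the dashed line marks the minimum mean of 1 FPKM for a test, under which DREB1B and DREB1H lie.

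DREB1C (Os06g0127100, listed as OsDREB1C) lies on the plus strand of chromosome 6, from 1434770 to 1435533 on the build IRGSP 1.0. Its level was 100.5 and 117 against 125 and 123 FPKM. The libraries of the lines did not overlap, and OE13-2KR/oswox13-1 was the lower. Among the 33744 genes of a library it ranked between place 1302 and place 1757. Group means were 109 ± 11.6 and 124 ± 1.24 FPKM (SD, n = 2 each). On the log2(FPKM + 1) scale, which is used for all fold changes here and understates those of low genes, OE13-2KR/oswox13-1 minus OE13 was -0.19 (SE 0.18, limma adjusted p = 0.559). The 95% interval of that difference ran from -0.64 to 0.26. The difference was -0.08 without replicate 1 of OE13-2KR/oswox13-1, -0.30 without its replicate 2 and -0.11 with median-of-ratios scaling. In bulk tissue, fewer cells of a type and less RNA per cell cannot be told apart.

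DREB1A (Os09g0522200, chromosome 9, 20403413 to 20404332, minus strand, listed as OsDREB1A), a cold-induced factor whose overexpression in rice is known to raise tolerance to drought, showed the largest difference among the tested members. It stood at 19.9 and 15.1 against 10.8 and 9.64 FPKM. Both OE13-2KR/oswox13-1 libraries lay above both OE13 libraries. Means were 17.5 ± 3.38 and 10.2 ± 0.813 FPKM (SD, n = 2 each). In percentiles of all genes of a library these levels were 78.8 and 76.2 against 69.6 and 67.8. The log2 difference was 0.71 (SE 0.22, 95% interval 0.16 to 1.27), with an unadjusted p of 0.0213 and an adjusted p of 0.209 (limma), which leaves it short of the threshold of 0.05. By unadjusted p it held place 2060 among 20174 genes tested. Leaving out replicate 1 of OE13-2KR/oswox13-1 gave an unadjusted p of 0.0783, leaving out replicate 1 of OE13 gave 0.0628 and leaving out its replicate 2 gave 0.112 (limma), while without replicate 2 of OE13-2KR/oswox13-1 it was 0.0147. In each of these fits 1 line has a single library, which is assumed to vary like those of the other line. The difference stayed between 0.53 and 0.90.

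DREB1H (Os09g0522100, 20399458 to 20400198, listed as OsERF_133) and DREB1B (Os09g0522000, 20395262 to 20395703, listed as OsDREB1B) follow DREB1A on the same strand of chromosome 9, with gaps of 3214 bp and 3754 bp between the genes. DREB1B, known to be induced by cold in rice, was at 0.341 and 0.720 against 0.590 and 0.262 FPKM, and the lines overlapped. DREB1H was at 0.151 and 0.629 FPKM against 0.0377 and 0.0640, without overlap. How reads matching several DREB1 copies were counted is not stated in the sources used here, so the split among these related genes is uncertain. DREB1B and DREB1H had a mean under 1 FPKM over the 4 libraries and were not tested. Levels in this run of adjacent genes thus differed between DREB1A and its neighbours in each library, with DREB1B and DREB1H overlapping each other over libraries. The next gene on the far side of DREB1B, the Holliday junction resolvase gene RAD, was at 1.60 and 0.970 against 2.24 and 2.43 FPKM. Beyond DREB1A, the next gene is 18808 bp away (Os09g0522800) and stayed between 0.278 and 0.799 FPKM.

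Of the DREB2 genes, DREB2A (Os01g0165000, chromosome 1, 3356383 to 3361204, plus strand) is a positive regulator of dehydration and salt responses. Its level was 34.9 and 36.9 against 24.7 and 30.1 FPKM. The lines did not overlap, with OE13-2KR/oswox13-1 higher. Means of 35.9 ± 1.43 and 27.4 ± 3.87 (SD, n = 2 each) gave a log2 difference of 0.38 (SE 0.19, 95% interval -0.10 to 0.86, limma adjusted p = 0.323). The difference was 0.24 without OE13 replicate 1. Of the 6 genes only DREB2A is overlapped by another gene of the table: Os01g0165100 on the other strand covers 44.4% of it and was listed at between 0.0475 and 0.0990 FPKM. Counting by strand is not stated in the sources used here, so reads of this pair cannot be told apart. The table lists 2 transcripts for DREB2A and gives 1 value for the gene.

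DREB2B (Os05g0346200, chromosome 5, 16297074 to 16300385, minus strand, listed as OsERF_042) is known in rice for a stress-dependent choice between splice forms, which FPKM per gene does not separate. It was at 51.2 and 47.8 against 42.7 and 51.8 FPKM. The highest and the lowest value both came from OE13, so the lines overlapped. The log2 difference of 0.07 (SE 0.19, 95% interval -0.40 to 0.54, limma adjusted p = 0.846) turned to -0.06 without OE13 replicate 1. That DREB2B did not pass does not show that the lines were alike, since the interval spans both directions.

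**Figure D2:**
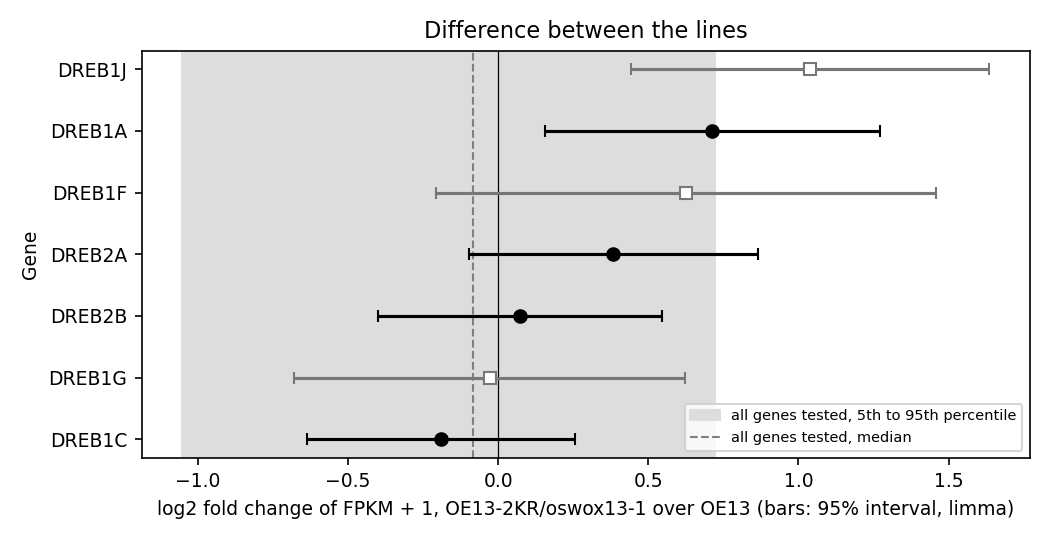
Log2 fold changes of FPKM + 1, OE13-2KR/oswox13-1 over OE13, for the 4 tested members (black circles) and 3 tested further DREB1 genes (open squares), with 95% intervals from limma. The grey band runs from the 5th to the 95th percentile of all genes tested, -1.05 to 0.72, and the dashed line is their median of -0.08.

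Read against the whole table, the counts of members rest on 4 tested genes and do not set them apart from the background. At an unadjusted p under 0.05, 1 of the 4 tested members was higher and 0 were lower in OE13-2KR/oswox13-1. Among all 20174 genes tested 20.0% reached that level, 8.0% higher and 12.0% lower. After adjustment 0.00496% of all genes passed, which is 1 gene. The libraries of the lines did not overlap for 3 of the 4 tested members, against 56.2% of all genes (23.4% higher and 32.8% lower). For 1 value, 2 libraries against 2 cannot give an exact two-sided permutation p under 0.333, and DREB1A, DREB1C and DREB2A each had that value. The log2 difference was positive for 3 of the 4 tested members, against 43.2% of all genes. Its median over the 4 was 0.23, against -0.08 for all genes.

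Ratios between members were looked at after the values were seen. Within a library such a ratio does not depend on how the library was scaled. The ratio of DREB1C to DREB1A was 5.05 and 7.73 against 11.6 and 12.8. The ratio of DREB2B to DREB2A was 1.47 and 1.30 against 1.73 and 1.72. The ratio of DREB1C to DREB2B was 1.96 and 2.45 against 2.93 and 2.38, and the lines overlapped. The first and second ratios were lower in OE13-2KR/oswox13-1 without overlap. For DREB1C to DREB1A this follows from the levels of the genes themselves, which lie apart in opposite directions, and no test is given for a ratio. Of the summed FPKM of the 6 genes, DREB1C held 48.6% and 53.6% against 61.3% and 57.3%. The sum itself overlapped between the lines, at 207 and 218 FPKM against 204 and 215.

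**Figure D3:**
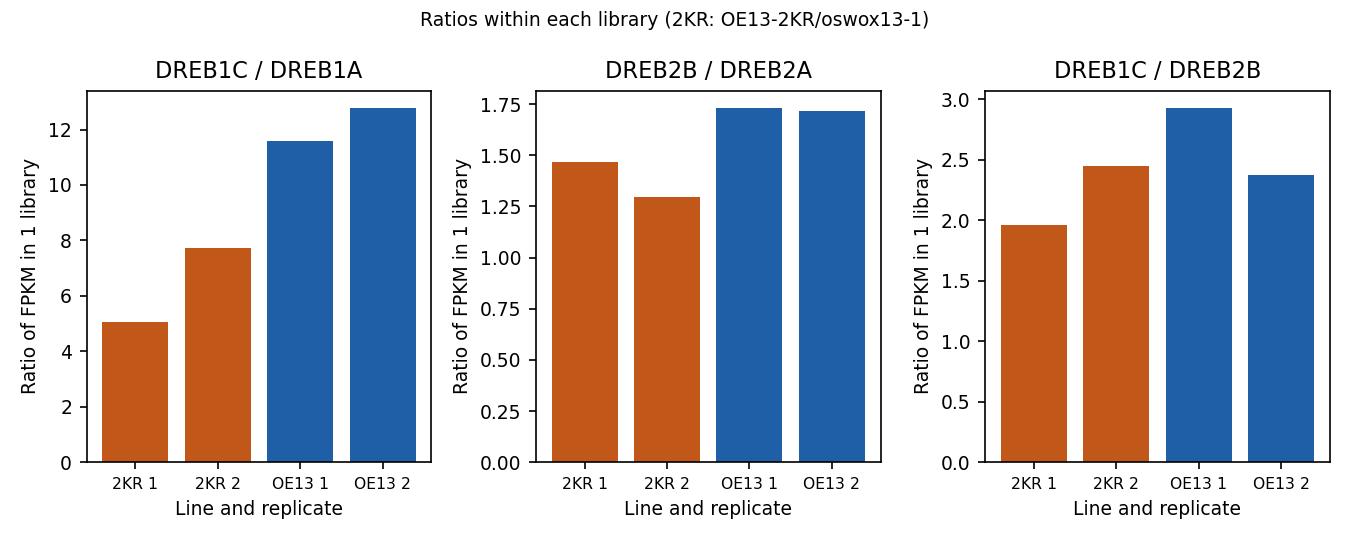
Ratio of DREB1C to DREB1A (left), of DREB2B to DREB2A (middle) and of DREB1C to DREB2B (right) within each library, as bars from 0, orange for OE13-2KR/oswox13-1 (2KR) and blue for OE13. Both OE13 bars are above both 2KR bars on the left and in the middle, while the bars of the lines overlap on the right.

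The authors' deposited table of genes marked up holds 1 of the 6 genes, DREB1C. In it DREB1C has a log2 fold change of 0.99, a p-value of 0.0184 and an adjusted p-value of 0.474, so it does not pass 0.05 after adjustment there either. Of the 1207 genes in the authors' deposited table, 927 could be paired by a single RAP identifier with a gene tested here, and 925 of these had a higher FPKM in OE13, so up there means higher in OE13. The direction for DREB1C is the same in both, but the FPKM difference, OE13 minus OE13-2KR/oswox13-1, was 0.19. The authors' deposited table exceeds the FPKM value by 0.79 for DREB1C, and only 27 of the 927 genes (2.91%) had a gap that large or larger. The median gap was -0.18, in the other direction. The authors' deposited table lists genes by MSU identifiers, and 1112 of its rows also carry exactly 1 RAP identifier of the FPKM table. The FPKM table lists genes by RAP identifiers. Whether the gene models account for the gap was not tested.

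**Figure D4:**
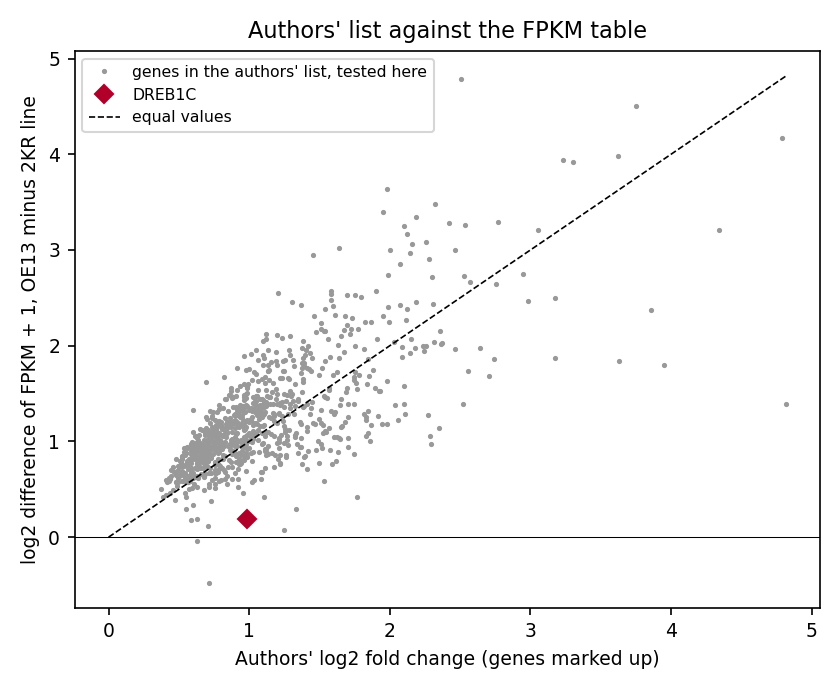
Log2 fold change in the authors' deposited table (horizontal) against the log2 difference of FPKM + 1, OE13 minus OE13-2KR/oswox13-1 (vertical), for 927 genes marked up. The red diamond is DREB1C, at 0.99 and 0.19, below the dashed line of equal values.

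Further genes of the DREB1 and DREB2 subgroups were looked up by identifier, and 7 of 9 were found under a fitting name. Tested were 3, of which 2 were higher in OE13-2KR/oswox13-1 without overlap, against 23.4% of all genes tested. The gene described as DREB1J (Os08g0545500, listed as OsERF_028) was at 18.1 and 15.1 against 6.41 and 8.81 FPKM, a range that overlaps that of DREB1A. Its log2 difference of 1.04 (SE 0.24) was larger than that of any of the 4 tested members, with an unadjusted p of 0.00613 and an adjusted p of 0.194 (limma). DREB1F (Os01g0968800), induced in rice by salt, drought and cold, was at 1.76 and 1.08 against 0.982 and 0.219 FPKM, with a log2 difference of 0.63 (SE 0.33, limma adjusted p = 0.342). Its mean over the 4 libraries was 1.01 FPKM and its OE13 mean 0.600. It thus passed the minimum mean of 1 FPKM only through the line where it was higher, and its test depends on that filter. DREB1G (Os02g0677300) was at 2.30 and 1.62 FPKM against 2.37 and 1.67, and the lines overlapped. The remaining 4 were under 1 FPKM on average. DREB1E was at 0.253 and 0.400 FPKM against 0.846 and 0.517, lower in OE13-2KR/oswox13-1 without overlap. DREB1D stayed between 0.00973 and 0.0658 FPKM, also lower in OE13-2KR/oswox13-1 without overlap. OsERF_044 was listed at 0 in all 4 libraries, and OsERF_041 in 3 of them. The wider AP2/ERF family had a median log2 difference of -0.03 over 74 tested genes of 119, and an unadjusted p under 0.05 was reached by 5 genes higher and 7 lower in OE13-2KR/oswox13-1. Among all genes tested, 8.0% were higher and 12.0% lower at that level. Of the 74, 19 were higher and 21 lower without overlap, against 23.4% and 32.8% of all genes tested. The 1 gene of the whole table that passed after adjustment, OsERF_047 (Os03g0191900), belongs to this family (limma adjusted p = 0.0247). OsERF_047 stood at 41.9 and 34.7 FPKM in OE13, and OE13-2KR/oswox13-1 has it listed at 0 in each library, with an SD of 0. OsERF_047 thus passed the minimum mean of 1 FPKM only through the line where it was higher, and its test depends on that filter. It lies within the span of a gene on the other strand, so its value is uncertain.

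Genes that act upstream of DREB genes in rice or Arabidopsis were split in direction. Of 14 identifiers, all found, 13 were tested. Signs were split, 6 above and 7 below 0 in log2 difference, with a median of -0.01, and 1 reached an unadjusted p under 0.05. This was MPK6, a mitogen-activated protein kinase gene (Os06g0154500, listed as MAPK6), at 70.5 and 63.7 against 42.4 and 48.8 FPKM (log2 difference 0.55, SE 0.18, limma adjusted p = 0.216). CBT, which codes for a calmodulin-binding transcription factor (Os07g0490200, listed as OsCBT), was the most abundant of them, at 302 and 297 FPKM against 351 and 399. HOS1, an E3 ubiquitin ligase gene known for degrading the DREB1 activator ICE1 in Arabidopsis, was at 11.2 and 11.9 against 13.8 and 13.6 FPKM. The MYB factor gene MYB30, a negative regulator of cold tolerance, was at 5.82 and 5.81 against 5.33 and 3.44 FPKM. None of CBT, HOS1 and MYB30 overlapped between the lines, and their adjusted p lay between 0.370 and 0.507 (limma). Besides MPK6 they were the only tested regulators without overlap, and the lines overlapped for 9 of the 13. Among all genes tested, 56.2% had no overlap, so separation was no more common among the regulators. SIZ2, a SUMO ligase gene, was at 54.7 and 62.3 against 60.8 and 57.8 FPKM, with overlap. ICE1 itself (Os11g0523700) was low, between 0.0582 and 0.251 FPKM, and its relative ICE2 was between 3.95 and 5.26.

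Genes with dehydration-responsive elements or known dehydration and cold responses, 15 of 16 identifiers kept, had differences in both directions. The log2 difference was positive for 5 and negative for 9 of the 14 tested, with a median of -0.16, and an unadjusted p under 0.05 was reached by 1 gene, higher in OE13-2KR/oswox13-1, and by 0 in the other direction. LEA3, a late embryogenesis abundant protein gene (Os05g0542500), was at 116 and 177 against 55.0 and 72.3 FPKM (log2 difference 1.17, SE 0.27, limma adjusted p = 0.194). The dehydrin gene LIP9 (Os02g0669100), induced in rice by DREB1A overexpression, was the most abundant, at 2995 and 4846 FPKM against 2690 and 2295. LIP19, a cold-induced bZIP factor gene (Os05g0129300), was at 936 and 878 FPKM against 607 and 778. LEA3, LIP9 and LIP19 are the 3 of 14 tested targets whose lines did not overlap, all with OE13-2KR/oswox13-1 higher. Among all genes tested, 23.4% were higher and 32.8% lower without overlap, so this count does not stand above the background. LIP9 and LIP19 had adjusted p of 0.343 and 0.361 (limma). RAB16A, a dehydrin gene under strong control by abscisic acid (Os11g0454300), was at 35.5 and 69.8 FPKM against 112 and 57.8, with overlap.

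Most of the 11 targets that overlapped shared a pattern over libraries rather than lines, seen after the values were examined. For 9 of the 14 tested targets, RAB16A, RAB16B, RAB16C, RAB25, WSI18, GolS1, P5CS1, LTI6A and LTI6B, the highest values were those of OE13-2KR/oswox13-1 replicate 2 and OE13 replicate 1. The same pair was highest for 10.6% of all genes tested, and for 0 of the 4 tested DREB members. GolS1, a galactinol synthase gene, was at 205 and 479 against 581 and 318 FPKM. The median of the targets turned to 0.25 when replicate 1 of OE13-2KR/oswox13-1 was left out and to 0.10 when replicate 1 of OE13 was.

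**Figure D5:**
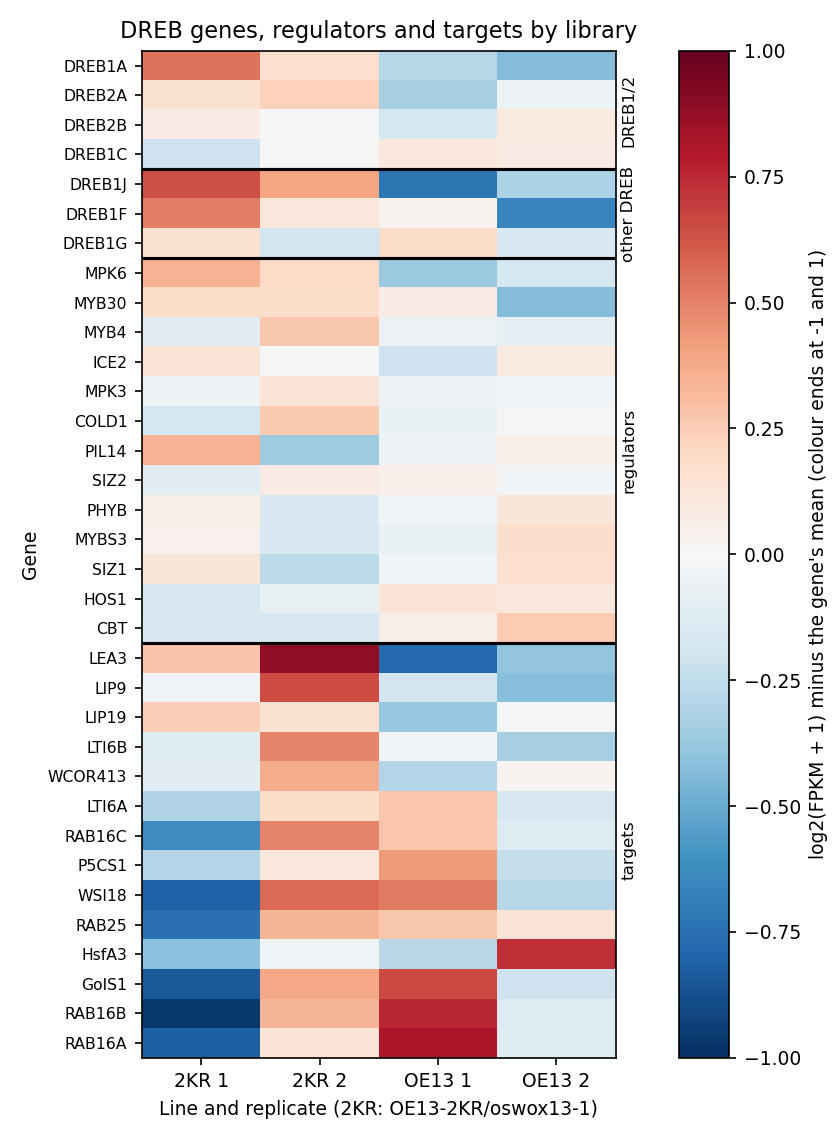
Each row is a tested gene and each column a library, with colour for log2(FPKM + 1) minus the gene's mean over the 4 libraries, red above and blue below. Rows are grouped into members, further DREB genes, regulators and targets, and sorted by the difference between the lines. DREB1A, DREB2A, DREB1J and LEA3 are red in both 2KR columns, while RAB16A, RAB16B and GolS1 are bluest in 2KR replicate 1.

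The genes whose pattern over the 4 libraries lay nearest to each member were named by the Euclidean distance of centred log2(FPKM + 1) values, a description over 4 libraries in which many genes are close. For DREB1A, whose own distance from a flat profile was 0.768, they were Os02g0829500, a beta-lactamase-like domain gene (distance 0.0447), OsWD40-33 (0.0669) and Os03g0356526 (0.0682), and 10 genes of 20173 lay within 0.1. Nearest to DREB2A were D3, the F-box protein gene of strigolactone signalling (0.0322), Os01g0825700 (0.0371) and Os03g0746400 (0.0399), with 79 genes within 0.1. D3 was at 66.5 and 70.7 against 46.6 and 56.3 FPKM. Nearest to DREB1C were Os06g0106900 (0.0123), Os03g0801900 (0.0162) and Os12g0155300 (0.0198), with 144 genes within 0.1. For DREB2B they were Os02g0193800 (0.0249), Os04g0492300, described as similar to the largest chain of RNA polymerase II (0.0267), and Os06g0309200 (0.0276), with 164 genes within 0.1. None of the members was among the nearest of another.

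Genes next to the remaining members had levels of their own. PEX11-5, a peroxisome division gene 7091 bp before DREB1C, was at 99.0 and 83.7 against 52.1 and 73.3 FPKM, the opposite direction to DREB1C. On its other side Os06g0127200, a SET domain gene, overlapped at 4.99 and 6.22 against 5.13 and 5.35 FPKM. Beside DREB2B, 2524 bp away, the gene described as 40S ribosomal protein S7 (Os05g0346300) was at 57.5 and 59.1 against 93.7 and 96.7 FPKM. Its other neighbour, Os05g0346100, overlapped at 13.4 and 16.3 against 11.7 and 15.2 FPKM. OsBRCA2, 1316 bp before DREB2A, was at 1.57 and 2.70 against 0.765 and 0.512 FPKM, and Os01g0165200 after it overlapped at 3.79 and 3.31 against 3.40 and 4.45. These neighbours are given by their levels, with no test.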

How the data were processed

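Per the file headers, the deposited table gives an FPKM value for each gene in each library. The sources used here do not say what computed it. HISAT2 2.2.1, featureCounts 2.0.0 and DESeq2 1.38.3 are listed in the submitters' processing notes beside the build IRGSP 1.0, and their roles are not stated there. For genes marked up, the deposited list holds the authors' log2 fold change, p-value, adjusted p-value and fold (ratio), per the file headers. Genes marked down could not be paired with RAP identifiers and were not used, nor were 2 unlabelled value columns beside the FPKM values and 9 of a sheet with 1 gene. The protocol in the labels is for RNA, although their molecule field reads genomic DNA, and values were treated as RNA-seq. The number of libraries limits precision.

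Columns were matched to samples by library name. With no counts among the files, limma 3.58.1 (R 4.3.3) with trended variance was fitted to log2(FPKM + 1). All 20174 genes averaging 1 FPKM or more entered, two-sided, with Benjamini-Hochberg adjustment and a threshold of 0.05. Residual degrees of freedom were 2, to which the prior added 3.30. These steps were tested on simulated data. Other pseudocounts, filters, scalings, a replicate block and leaving out each library were tried. Members and lists were chosen with earlier results of these data known. Named are all members and further DREB genes, the regulators and targets with the 4 smallest p or the 2 highest means, the 3 nearest genes by pattern, and neighbours on the chromosome. OsERF_047, ICE1, ICE2, GolS1 and the leaf genes given values were named after their values were seen. List identifiers were kept where name or description matched.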

Additional observations from a re-analysis of the deposited data

How the results depend on the processing

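With 2 libraries per line, 1 library can end a statement. DREB1A, DREB1C and DREB2A kept their direction and stayed short of adjusted p 0.05 under all alternatives run, and DREB2B ranged from -0.064, its only reversal, without OE13 replicate 1 to 0.21 without OE13 replicate 2. The number of members at an unadjusted p under 0.05 was between 0 and 1 with 1 library left out. The genes past adjusted p 0.05 (limma) numbered 2 with a pseudocount of 5, 0 without a filter on low values, 2 with quantile normalisation, 0 with a replicate block and between 0 and 5 with 1 library left out, against 1. Genes at an unadjusted p under 0.05 were between 1783 and 4962 with 1 library left out, against 4028. Among these the share higher in OE13-2KR/oswox13-1 was 40.04% as deposited and 52.8% with quantile normalisation, which moved the median of all genes from -0.08 to 0.03. The median of the further DREB genes was 1.12 with a pseudocount of 0.1, 0.20 with 5, 0 without a filter and 1.04 with the minimum mean set to 5 FPKM, and between 0.27 and 0.84 with 1 library left out. That of the regulators was 0.068 with median-of-ratios scaling and 0.12 with quantile normalisation. For the wider AP2/ERF family it was 0.043 with the minimum set to 5 and 0.056 with median-of-ratios scaling, and between -0.067 and 0.014 with 1 library left out; for the targets that range was from -0.51 to 0.25, positive without replicate 1 of either line. The difference of DREB1H, 0.38 and untested, was 1.51 with a pseudocount of 0.1 and 0.09 with 5. Deviations of same-numbered libraries correlated at -0.09 across genes, which shows no general pairing by replicate number. That single value cannot exclude pairing in some genes. For 6 of the 7 leaf markers, replicate 1 of each line held the highest values. For 9 of the 14 tested targets, the highest pair was OE13-2KR/oswox13-1 replicate 2 and OE13 replicate 1. With the replicate block the adjusted p of DREB1A was 0.287 and no member's side of the threshold changed. The count tests planned as an alternative were not run, since the files hold no counts.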

Other observations

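Leaf photosynthesis genes were mostly highest in replicate 1 of each line. For 6 of the 7 leaf markers, among them Rubisco small subunit, light-harvesting and Rubisco activase genes, the highest values were those of replicate 1 of each line, against 12.3% of all genes tested. CAB2R, a light-harvesting chlorophyll-binding protein gene, was at 1022 and 387 FPKM (OE13-2KR/oswox13-1, replicates 1 and 2) against 2018 and 882 (OE13), and the Rubisco activase gene at 2460 and 1204 against 1992 and 953. Among the tested DREB genes DREB1G had its highest values in that pair of libraries, and 0 of the 4 tested members did. These lists were set beside each other after the values were seen. By line, the log2 difference was negative for 6 of the 7 leaf markers and positive for 1, against 43.2% positive among all genes tested. Their median was -0.46, against -0.08 for all genes, and 0 of the 7 reached an unadjusted p under 0.05 (limma).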
